A study of Microhyla fissipes with 9 samples.

Results

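The comparison described here set tadpoles of the farmland frog Microhyla fissipes exposed to 90 mg/L of a glyphosate-based herbicide (GBH) against unexposed tadpoles (0 mg/L, control). Each group was represented by 3 poly-A selected RNA sequencing libraries of whole tissue, out of 9 libraries in the series, the other 3 being from 60 mg/L. All tadpoles were at Gosner stage 30, and exposure lasted 10 days in containers that held 20 tadpoles in 1000 mL of water at 24 °C, with 5 containers per dose. The labels state neither how many tadpoles nor which container a library holds, so a p-value here speaks only of library-to-library spread, part of which may be technical. The rule kept unigenes, which are assembled transcript clusters, that lay above 0 FPKM (fragments per kilobase of transcript, set relative to all mapped fragments of the library) in all 6 libraries and averaged at least 5 FPKM over them. It kept 35627 of the 426250 unigenes listed, and these are called detected unigenes below.

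Glyphosate blocks an enzyme that plants and microbes use to make aromatic amino acids and that animals lack, and commercial formulations add surfactants. In a whole-animal library, RNA from every organ is mixed, and a small set of very abundant transcripts can take up a large part of the measurement. FPKM is relative to the library total, so a shift in such transcripts moves the values of all others. The sources used here pair no unigene with a gene name, so what each encodes is not given, the tissue label could not be checked against marker genes, and fewer cells of a type cannot be told apart from less RNA per cell.

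The remaining unigenes were kept apart from the detected ones. Of those averaging 5 FPKM or more, 514 had a listed value of 0 throughout the 90 mg/L group and 817 throughout the controls, while 9833 were listed at 0 in some libraries but not in a whole group. The other 379459 lay below 5 FPKM. Requiring a value above 0 in every library removes unigenes with 0 at either end of a change, so counts over the detected unigenes leave out the most extreme patterns. Unigenes just inside and just outside the bound were alike: the median log2 difference was -0.043 for the 100 with means of 5 to 5.02 FPKM and -0.015 for the 100 with means of 4.98 to 5 FPKM.

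Detected unigenes were cut into 5 levels by their mean FPKM over the 6 libraries. There were 15018 at 5 to 10 FPKM, 13019 at 10 to 30, 5024 at 30 to 100, 2234 at 100 to 1000 and 332 at 1000 FPKM and above. The last level is called the top level. Differences are those of log2(FPKM + 1) after each library was divided by its median-ratio factor, the median of its ratios to a common profile. These factors came from the 89518 unigenes above 0 in all 9 libraries, and the median difference over all 147577 tested unigenes was 0. The scaling divided values by 1.08 to 1.10 at 90 mg/L and by 0.765 to 0.918 in controls.

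Among the 6 libraries, GBH 90 mg/L replicate 3 and control replicate 2 often lay together on 1 side of the other 4. Both lay above or both below all 4 others in 39.9% of detected unigenes, 7427 above and 6771 below, beside 26.9% of all tested unigenes. The median absolute log2 difference between libraries over detected unigenes was 0.32 between GBH 90 mg/L replicates 1 and 2 and 0.29 between control replicates 1 and 3. It was 0.39 to 0.48 between these exposed and these control libraries, but 0.75 and 0.81 between control replicate 2 and control replicates 1 and 3. GBH 90 mg/L replicate 3 was 0.52 and 0.47 from GBH 90 mg/L replicates 1 and 2, 0.55 from control replicate 2 and 0.57 and 0.58 from control replicates 1 and 3, so by this measure it was nearest its own group. Control replicate 2 differed more from its own group than the other controls did from GBH 90 mg/L replicates 1 and 2. The median SD within a group was accordingly 0.38 at 90 mg/L and 0.53 in controls on the log2 scale. Read totals were not in the table, and relative depth read from the most frequent ratio between low values was 0.768, 0.883 and 1.09 at 90 mg/L, against 1, 0.953 and 0.953 in controls, with control replicate 1 set to 1.

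At 90 mg/L the top level held a smaller part of the transcriptome on average, although the groups met. Its 332 unigenes held 39.4%, 40.0% and 44.7% of the summed FPKM at 90 mg/L, against 46.4%, 51.9% and 44.7% in controls. GBH 90 mg/L replicate 3 and control replicate 3 had the same rounded share, and control replicate 2 stood highest. The means were 41.4% ± 2.92 at 90 mg/L and 47.7% ± 3.76 in controls (SD, n = 3 each), a difference of -6.32 percentage points (two-sided exact permutation p = 0.2, adjusted p = 0.28 over 14 tests). Without control replicate 2 that difference was -4.20 points. Libraries at 60 mg/L, set beside the same controls, held 39.2%, 43.8% and 38.5% in these unigenes. They took no part in the choice of these unigenes, which by itself can lower their share.

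**Figure D1:**
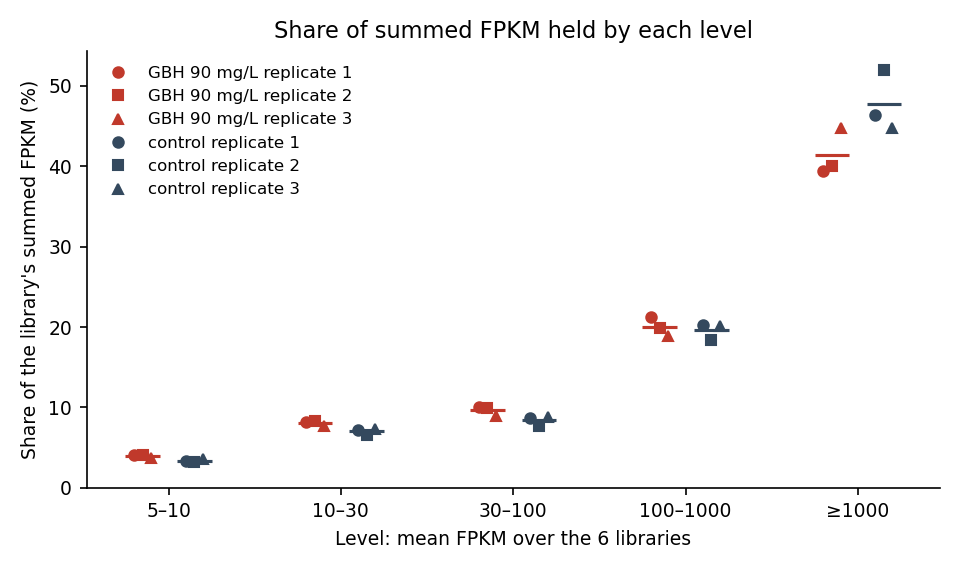
Share of each library's summed FPKM (y axis, percent) held by detected unigenes of each level (x axis, mean FPKM over the 6 libraries), with a point per library and a bar at the group mean (n = 3). The libraries at 90 mg/L lie above the controls in the 3 lowest levels, overlap them at 100 to 1000 FPKM and average 41.4% against 47.7% at 1000 FPKM and above.

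The 3 lower levels held more at 90 mg/L, and there the groups did not overlap. At 5 to 10 FPKM the share was 4.02%, 4.09% and 3.77% at 90 mg/L, against 3.39%, 3.16% and 3.55% in controls. Unigenes of 10 to 30 FPKM held 8.21%, 8.32% and 7.71% at 90 mg/L, against 7.14%, 6.59% and 7.30% in controls. The level of 30 to 100 FPKM held 10.1%, 9.94% and 8.99% at 90 mg/L, against 8.70%, 7.70% and 8.84% in controls. All 3 lower levels thus gained between 0.593 and 1.25 percentage points. Each had an exact permutation p = 0.1, the smallest that 3 against 3 allows, and an adjusted p of 0.156. Shares are parts of the same library total, so these gains and the loss of the top level are not separate results. Control replicate 2, highest in the top level, was lowest in all 3. At 100 to 1000 FPKM the share was 20.0% ± 1.18 at 90 mg/L and 19.6% ± 1.05 in controls (SD, n = 3 each), with overlapping groups (exact permutation p = 0.8). The sign of that small difference turned to -0.272 points without GBH 90 mg/L replicate 1 and to -0.263 points without control replicate 2.

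In all, detected unigenes held 82.9%, 82.2% and 84.1% of the summed FPKM at 90 mg/L, against 85.9%, 87.8% and 84.6% in controls, a difference of -3.05 percentage points without overlap (exact permutation p = 0.1). The unigenes below 5 FPKM took up most of it, with 11.5% ± 0.755 at 90 mg/L and 9.19% ± 0.538 in controls (SD, n = 3 each), again without overlap (exact permutation p = 0.1). Expression was spread over more unigenes at 90 mg/L: the most abundant unigenes that together held 50% of the summed FPKM numbered 803, 826 and 512 at 90 mg/L, against 407, 250 and 475 in controls. The groups did not overlap in that number (exact permutation p = 0.1, adjusted p = 0.156). It draws on the same shares as the levels, so it is not a separate result. The 10 most abundant unigenes of each library, by contrast, held 7.71% ± 0.638 at 90 mg/L and 7.68% ± 0.434 in controls (SD, n = 3 each), so the difference was smaller than the spread between libraries. The 100 most abundant held 27.6% ± 2.46 and 31.4% ± 3.26 in the same order, with overlapping groups (exact permutation p = 0.3). The 1000 most abundant held 53.5% ± 2.40 and 60.5% ± 3.61 without overlap (exact permutation p = 0.1).

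Behind the net change, unigenes gained and lost share side by side within each level. Among the 332 of the top level, 116 gained 2.87 percentage points together and 216 lost 9.18 points, and 26 of them made up 50% of the loss. Without overlap between groups in their share, 23 gained 0.881 points and 46 lost 3.07 points. These 69 are 20.8% of the top level, close to the 21.1% of all detected unigenes whose shares did not overlap (14.6% of all tested unigenes), so their number is no result about the top level. By direction, 6.93% of the top level gained and 13.9% lost without overlap, against 16.7% and 4.42% of all detected unigenes and 11.6% and 3.01% of all tested ones. At 100 to 1000 FPKM the gains of 1335 unigenes (4.27 points) and the losses of 899 (3.93 points) nearly cancelled. In the 3 lower levels gains were 2.15 to 2.68 times the losses, for example 2.35 points gained by 3390 unigenes and 1.09 points lost by 1634 at 30 to 100 FPKM. Summed gains and losses include the scatter between libraries, so only the net is free of scatter that cancels.

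**Figure D2:**
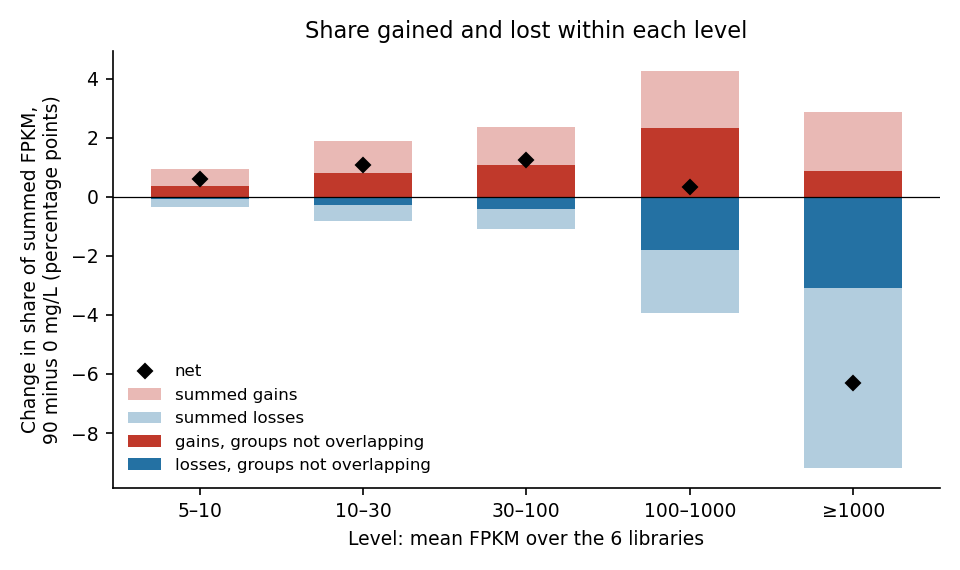
Change in share of summed FPKM (y axis, percentage points, 90 minus 0 mg/L, difference of means of 3 libraries each) summed over unigenes that gained and over unigenes that lost, by level (x axis, mean FPKM). Dark bars are the part from unigenes whose shares did not overlap between groups, and diamonds are the net, which runs from 1.25 points at 30 to 100 FPKM to -6.32 points at 1000 FPKM and above.

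After scaling, the typical detected unigene was slightly lower at 90 mg/L, and the more so the higher its level. The median log2 difference was -0.07 at 5 to 10 FPKM, -0.11 at 10 to 30, -0.11 at 30 to 100, -0.21 at 100 to 1000 and -0.49 in the top level, against 0 over all tested unigenes. Scaling by median ratios places that last median near 0 largely by construction, so it is a reference point and no result. With factors from unigenes of at least 5 FPKM the median was 0.018 at 5 to 10 FPKM and -0.39 in the top level. In the top level 88.9% of unigenes had a negative difference, with quartiles of -0.74 and -0.28, whereas at 5 to 10 FPKM it was 56.3%, with quartiles of -0.38 and 0.25. Large differences had the same slant: 18.4% of the top level stood lower by more than 1 on the log2 scale and 0.904% higher, against 4.96% lower and 3.37% higher at 5 to 10 FPKM. Over all tested unigenes these shares were 10.9% and 10.8%.

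The direction of these medians depended on the scaling. With the deposited FPKM, in which the median over all tested unigenes was 0.22, the median over detected unigenes was 0.22 and that of the top level -0.14, and quantile normalization gave 0.037 and 0.13. The gap between the top level and the level of 5 to 10 FPKM was -0.42 after scaling and -0.37 in deposited FPKM. Quantile normalization, which gives every library the same set of values and so removes such a gap by construction, put it at 0.094. Each library's own gap, measured from the control mean, was -0.53, -0.55 and -0.24 at 90 mg/L, against -0.14, 0.37 and -0.25 in controls. GBH 90 mg/L replicate 3 therefore lay among the controls in this gap, and without control replicate 2 the difference between groups shrank to -0.20.

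**Figure D3:**
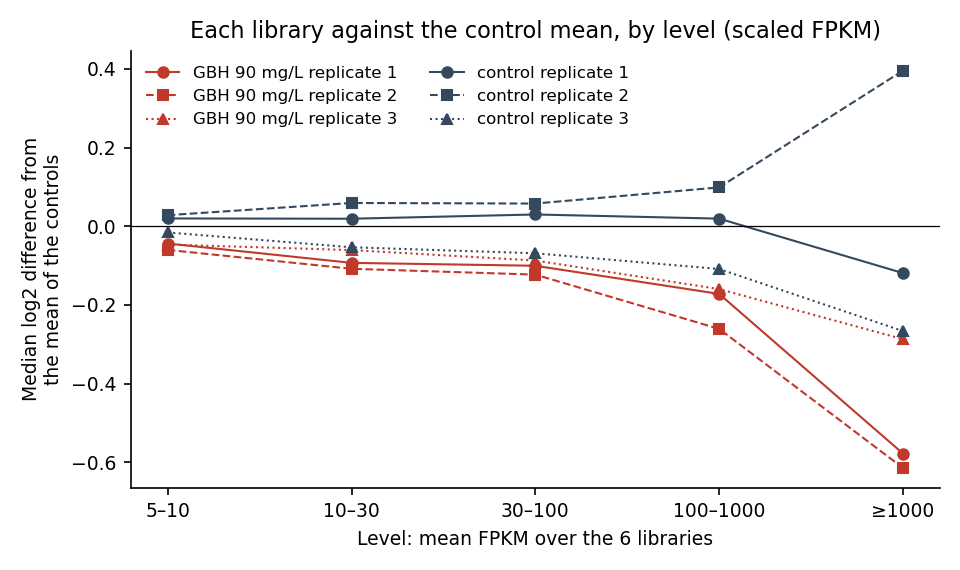
Median log2 difference of each library from the mean of the 3 controls (y axis, scaled FPKM plus 1) over the detected unigenes of each level (x axis, mean FPKM over the 6 libraries). The lines spread with level: at 1000 FPKM and above the libraries at 90 mg/L stand at -0.58, -0.61 and -0.29 and the controls at -0.12, 0.40 and -0.27.

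Within that pair of libraries (GBH 90 mg/L replicate 3 and control replicate 2) and within the other 4, the level pattern had the same direction. The median log2 difference of the top level was -0.71 for GBH 90 mg/L replicate 3 minus control replicate 2, and -0.37 for GBH 90 mg/L replicates 1 and 2 minus control replicates 1 and 3. At 5 to 10 FPKM the same differences were -0.11 and -0.05. The split was drawn from these same data, so it is no separate test of the pattern by level. The differences within the pair set 1 library against 1. In the top level control replicate 2 stood at 0.40 from the control mean, against -0.12 and -0.27 for control replicates 1 and 3. Those unexposed libraries thus also lay below it, so the sign within the pair is not particular to exposure. The part of these libraries in the pattern by level was not tested further.

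On scaled FPKM, groups that did not overlap were more often lower than higher at 90 mg/L among detected unigenes, 4010 lower and 2191 higher. On shares of summed FPKM the balance was the reverse, 1573 (4.42%) lower and 5950 (16.7%) higher. At 5 to 10 FPKM it was 456 (3.04%) lower and 2234 (14.9%) higher. All tested unigenes had the same balance on shares, 3.01% lower and 11.6% higher, so it is not particular to detected unigenes. In the top level alone both scales had more lower. On scaled FPKM 101 unigenes of the top level (30.4%) lay lower in all 3 libraries at 90 mg/L than in all 3 controls and 6 (1.81%) lay higher. At 5 to 10 FPKM these were 1245 (8.29%) lower and 850 (5.66%) higher. The background on scaled FPKM over all tested unigenes was 6.22% lower and 5.71% higher. The lowest level therefore stood near it for unigenes higher at 90 mg/L.

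Tested one by one, 98 detected unigenes fell and 10 rose at 90 mg/L against control, with limma on all 9 libraries and a Benjamini-Hochberg adjusted p under 0.05 over all tested unigenes. These were 0.275% and 0.0281% of the detected unigenes, beside 0.233% that fell and 0.059% that rose among all tested unigenes. The share that fell was near the background and the share that rose was below it. With the deposited FPKM, without scaling, 59 fell and 21 rose. Limma with the spread estimated from these 6 libraries alone called 5 falls and 0 rises (3979 detected unigenes at an unadjusted p under 0.05), so the number of calls depended on whether the 60 mg/L libraries shared in the estimate of the spread. Leaving out single libraries gave 34 to 154 falls and 2 to 18 rises. By library, falls numbered 51, 34 and 65 and rises 4, 2 and 9 without GBH 90 mg/L replicates 1, 2 and 3. They were 68, 154 and 61 falls and 5, 15 and 6 rises without GBH 60 mg/L replicates 1, 2 and 3, and 34, 122 and 50 falls and 5, 18 and 6 rises without control replicates 1, 2 and 3. Without GBH 90 mg/L replicate 3, GBH 60 mg/L replicate 2 and control replicate 2 together, 182 fell and 34 rose, among them 51 of the 98 and 6 of the 10.

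**Figure D4:**
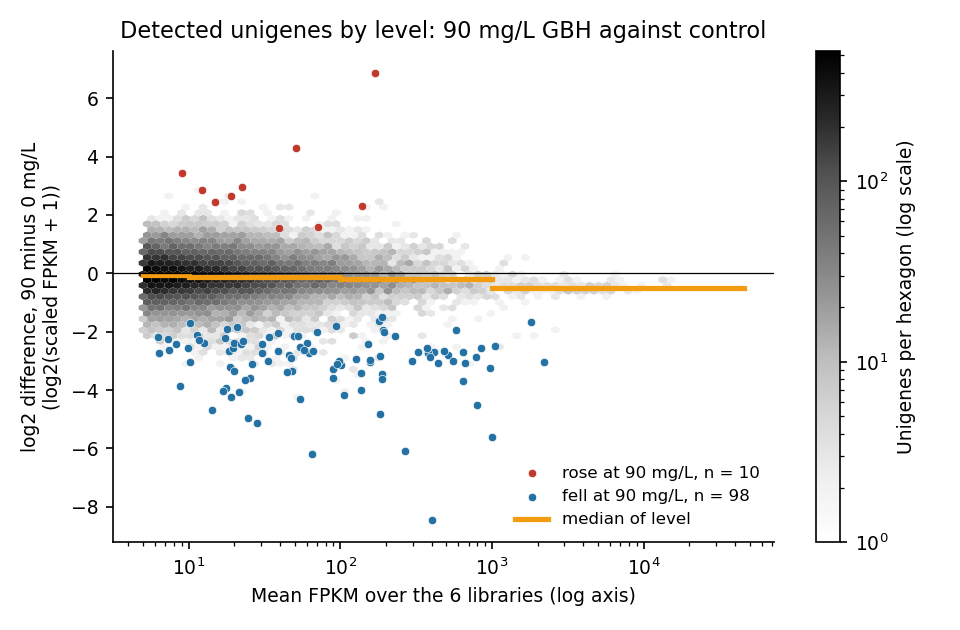
Log2 difference of each detected unigene (y axis, 90 minus 0 mg/L on log2(scaled FPKM + 1)) against its mean FPKM over the 6 libraries (x axis, log scale), with grey hexagons shaded by the number of unigenes and coloured points for the 10 that rose and the 98 that fell. Orange bars mark the median of each level, which goes from -0.07 to -0.49.

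The calls were not spread evenly over levels. Falls numbered 7 (0.0466% of the level) at 5 to 10 FPKM, 25 (0.192%) at 10 to 30, 25 (0.498%) at 30 to 100, 37 (1.66%) at 100 to 1000 and 4 (1.20%) in the top level. Rises numbered 1 (0.00666%), 4 (0.0307%), 3 (0.0597%), 2 (0.0895%) and 0 in the same order of levels. Over all tested unigenes 0.233% fell and 0.059% rose. Falls at 10 to 30 FPKM and rises at 30 to 100 FPKM stood near these shares, so their counts are no result about those levels. The rises are too few to compare between levels. Of the 332 unigenes of the top level, 6 were higher and 90 lower at an unadjusted p under 0.05 by limma. Of the 147577 tested unigenes, 11242 reached that bound in either direction. Their split by direction is not given here, so the split in the top level has no background beside it. The slant was read after scaling, and the median of the top level, -0.49, became -0.14 without scaling and 0.13 by quantile normalization. The spread between libraries, and with it the smallest change that could pass, was larger at low levels: the median SE of a log2 difference was 0.46 at 5 to 10 FPKM and 0.30 in the top level. The share that fell therefore cannot be compared between levels as a rate of change.

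Together the 98 that fell held 0.211%, 0.194% and 0.275% of the summed FPKM at 90 mg/L, against 1.19%, 1.26% and 1.31% in controls. Their log2 differences ran from -8.45 to -1.51 with a median of -2.78, and 89 were beyond -2. The 37 that fell at 100 to 1000 FPKM made up most of this, with 0.135% at 90 mg/L and 0.795% in controls. The 10 that rose held 0.0333%, 0.0323% and 0.0381% at 90 mg/L, against 0.00398%, 0.00252% and 0.00393% in controls, with log2 differences of 1.56 to 6.86. These values describe unigenes picked for passing the test on the same libraries. They account for 1.03 of the 15.4 percentage points lost over all detected unigenes, the rest being losses that did not pass the test one by one.

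Among the unigenes that fell, the largest loss in mean scaled FPKM was that of Cluster-47276.167089, in the top level. It stood at 504.73, 370.96 and 961.1 FPKM at 90 mg/L, against 2859.19, 5489.37 and 3123.36 FPKM in controls. All 3 exposed libraries lay far below the lowest control, and control replicate 2 was highest. The log2 difference was -3.05 (SE 0.42, adjusted p = 0.0268 by limma), an 8.20-fold lower mean on scaled FPKM. This call was lost in 13 of 20 alternatives, with no change of sign, among them leaving out any single library other than GBH 90 mg/L replicate 3 (adjusted p of 0.0538 to 0.127).

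Cluster-47276.172772 followed, with 49.13, 51.66 and 48.8 FPKM at 90 mg/L, against 1696.77, 1937.6 and 2233.37 FPKM in controls. Its highest exposed library was 1.06 times its lowest, and the lowest control was 32.8 times the highest exposed library. The log2 difference was -5.61 (SE 0.30, adjusted p = 0.00200 by limma), and the scaled mean was 50.2-fold lower at 90 mg/L. It passed the threshold in all 20 alternatives, with adjusted p-values of up to 0.0320. In the 60 mg/L libraries it stood at 68.99, 59.89 and 32.56 FPKM, with a log2 difference of -0.04 for 90 minus 60 mg/L (adjusted p = 1 by limma).

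Of the unigenes that rose, Cluster-47276.281997 had the largest gain in mean scaled FPKM, and lies at 100 to 1000 FPKM. It stood at 333.22, 223.52 and 451.72 FPKM in the libraries at 90 mg/L, against 3.29, 0.33 and 1.36 FPKM in controls, so every exposed library was far above every control. The scaled means were 309.2 ± 105.1 FPKM at 90 mg/L and 1.90 ± 1.72 FPKM in controls (SD, n = 3 each). Its log2 difference was 6.86 (SE 0.72, adjusted p = 0.00792 by limma), and the call was lost only when limma was fitted to the 6 libraries alone (adjusted p = 0.0525), out of 20 alternatives.

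Cluster-47276.199337 had the second largest gain, with 207.26, 213.98 and 297.56 FPKM at 90 mg/L, against 46.72, 25.36 and 41.77 FPKM in controls. The lowest exposed library was 4.44 times the highest control. The log2 difference was 2.30 (SE 0.36, adjusted p = 0.0465 by limma), a 5.00-fold higher scaled mean. It lay close to the threshold and missed it in 12 of 20 alternatives, including the loss of any single library other than GBH 60 mg/L replicate 2 (adjusted p of 0.0546 to 0.145). At 60 mg/L it stood at 295.81, 137 and 247.68 FPKM, and 90 minus 60 mg/L gave a log2 difference of 0.13 (adjusted p = 1 by limma).

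**Figure D5:**
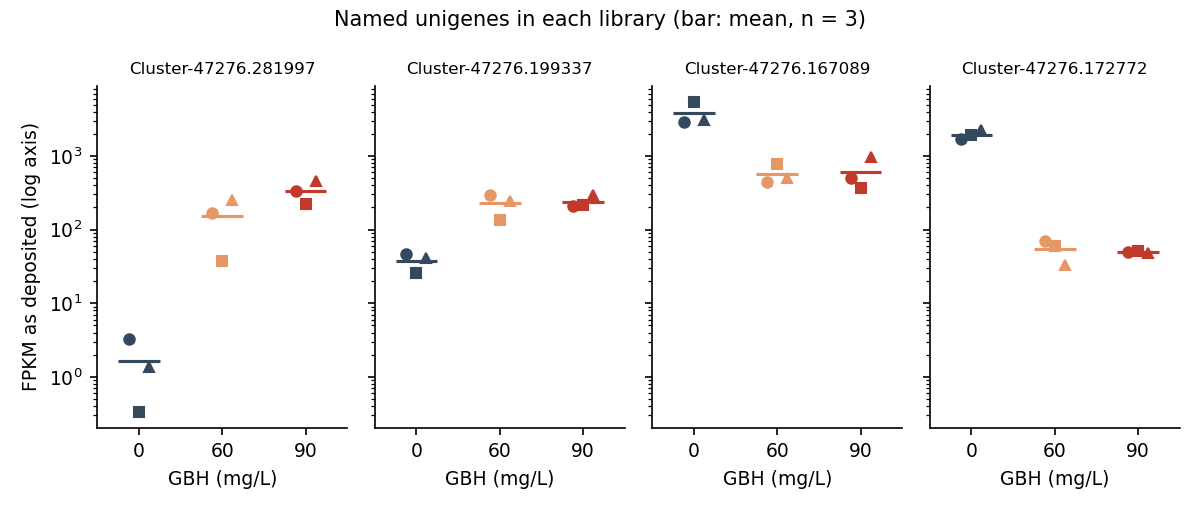
Deposited FPKM (y axis, log scale) of the 4 unigenes with the largest gain or loss among those called, in each library at 0, 60 and 90 mg/L GBH (x axis), with marker shape for the replicate number and a bar at the mean (n = 3). In all 4 panels the libraries at 90 mg/L lie wholly above or wholly below the controls, which was a condition of the choice.

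Other called unigenes, described without identifiers, had the largest falls and rises of their levels. Adding 1 FPKM before the logarithm shrinks log2 differences most at low values, so their sizes cannot be compared between levels. At 5 to 10 FPKM the largest fall was to 0.28, 0.12 and 1.01 FPKM at 90 mg/L, against 11.99, 23.95 and 14.91 FPKM in controls (log2 difference -3.86, adjusted p = 0.0079 by limma). The only rise of that level reached 9.12, 16.88 and 26.92 FPKM at 90 mg/L, against 0.17, 0.78 and 0.28 FPKM in controls (log2 difference 3.44, adjusted p = 0.0157 by limma). On scaled means the fall was 47.2-fold and the rise 32.1-fold. Both went without overlap, as did all 98 falls and 10 rises among detected unigenes. In FPKM the exposed libraries of the rise differed more among themselves, but in proportion to their values those of the fall did.

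At 10 to 30 FPKM the largest fall was to 1.32, 0.45 and 1.03 FPKM at 90 mg/L, against 56.18, 37.54 and 72.61 FPKM in controls, and the largest rise was to 39.27, 50.72 and 35.26 FPKM at 90 mg/L, against 2.33, 3.9 and 4.4 FPKM in controls. At 30 to 100 FPKM the largest fall was to 1.08, 0.61 and 1.57 FPKM at 90 mg/L, against 188.05, 85.15 and 113.64 FPKM in controls. The largest rise there was to 121.46, 116.39 and 58.26 FPKM at 90 mg/L, against 1.72, 3.84 and 3.62 FPKM in controls. In these 4 unigenes the log2 differences were -5.13, 2.94, -6.20 and 4.29 in the order given, each with an adjusted p under the threshold by limma (0.0225, 0.0218, 0.0157 and 0.00802).

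The fall with the most negative log2 difference of all detected unigenes lay at 100 to 1000 FPKM. That unigene reached 2.76, 0.55 and 2.35 FPKM at 90 mg/L, against 1147.81, 517.04 and 739.78 FPKM in controls (log2 difference -8.45, SE 0.70, adjusted p = 0.00389 by limma). All 3 exposed libraries were near 0, and no control was.

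The most abundant unigene of each level did not pass the test. Cluster-47276.167347, the highest of all, stood at 44233, 37635 and 57065 FPKM at 90 mg/L, against 46064, 44217 and 47187 FPKM in controls. Its share of the summed FPKM was 1.61% at 90 mg/L and 1.57% in controls, while its scaled log2 difference was -0.36 (SE 0.19, adjusted p = 0.732 by limma). The share and the scaled difference thus had opposite signs. Cluster-47276.167877, at the upper end of 100 to 1000 FPKM, had 706.97, 639.85 and 1078.25 FPKM at 90 mg/L, against 688.75, 2032.88 and 852.81 FPKM in controls, with overlapping groups and control replicate 2 highest. Cluster-47276.161424, Cluster-47276.196260 and Cluster-47276.121830 led the levels of 30 to 100, 10 to 30 and 5 to 10 FPKM, with scaled log2 differences of 0.43, -0.76 and -0.72 (adjusted p = 0.754, 0.637 and 0.865 by limma).

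Some of the largest shifts of share in the top level came from libraries that did not follow the groups. Cluster-47276.167320, chosen after its values were seen for the largest loss of share, stood at 3118.79, 1943 and 95.85 FPKM at 90 mg/L, against 19207, 61.3 and 16292 FPKM in controls. GBH 90 mg/L replicate 3 and control replicate 2 were both far below the rest, and the groups overlapped (log2 difference -2.04, SE 2.31, adjusted p = 0.898 by limma). In 16 top-level unigenes these 2 libraries lay below the other 4 with a mean more than 10-fold lower, and in 0 were they more than 10-fold higher. Without a bound on size, both lay above the other 4 in 90 top-level unigenes and below them in 42. The share of Cluster-47276.167320 was 0.0604% at 90 mg/L and 0.411% in controls, so 1 unigene gave 0.350 of the 9.18 points lost in that level. The largest gain of share of any detected unigene was 0.171 points, also in the top level. That unigene stood at 10737, 9375 and 6062 FPKM at 90 mg/L, against 6020, 1644 and 4046 FPKM in controls. Its groups overlapped on scaled FPKM (log2 difference 0.95, SE 0.40, adjusted p = 0.629 by limma).

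Other large shifts did separate the groups without passing the test. Overlap was judged here on scaled FPKM, not on shares. Cluster-47276.166610 lost the most share among detected unigenes whose groups did not overlap, with 3513.13, 4408.24 and 6546.91 FPKM at 90 mg/L, against 7649.31, 18413 and 8467.92 FPKM in controls (log2 difference -1.54, SE 0.41, adjusted p = 0.317 by limma). Cluster-47276.189224 gained the most share among those without overlap, with 4001.43, 4918.18 and 4192.64 FPKM at 90 mg/L, against 2246.65, 951.53 and 1895.49 FPKM in controls (log2 difference 1.09, SE 0.26, adjusted p = 0.242 by limma). Both were chosen after their values were seen, and in both control replicate 2 was the farthest from the exposed libraries.

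Unigenes listed at 0 in a whole group carried little of the total. The 514 at 0 at 90 mg/L held 0.363%, 0.210% and 0.407% of the summed FPKM in control replicates 1, 2 and 3. The 817 at 0 in controls held 0.689%, 0.436% and 0.275% at 90 mg/L. Only 147 of the 514 were above 0 in all 3 controls, and 151 of the 817 in all 3 libraries at 90 mg/L, so most were listed at 0 in a library of the other group too. Limma called 61 of the 514 as falls and 47 of the 817 as rises, beside 0.233% and 0.059% of all tested unigenes. These counts are no result about the unigenes, since being at 0 in 1 group and averaging 5 FPKM through the other fixed both direction and size. All spread of such a unigene within these 2 groups comes from a single group while the fit keeps its degrees of freedom, so these p-values may be too small. With the 6 libraries alone the calls were 11 and 8.

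A high value in some libraries did not exclude a 0 in another. Among unigenes averaging 100 FPKM or more over the 6 libraries, 66 were listed at 0 in at least 1. Of the 514, the unigene with the largest share in controls had 195.96, 473.88 and 210.6 FPKM in controls and 105.81, 250.78 and 0 FPKM at 60 mg/L. Of the 817, the unigene with the largest share at 90 mg/L had 80.5, 60.84 and 47.57 FPKM in the exposed libraries and 20.78, 0 and 39.53 FPKM at 60 mg/L. Neither passed the test of 90 mg/L against control, with adjusted p-values of 0.142 and 0.118 by limma in that order.

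Between both doses, limma found 7 detected unigenes higher at 90 than at 60 mg/L and 0 lower, where 208 were lower and 516 higher at an unadjusted p under 0.05. Of all tested unigenes 0.0346% were called in either direction, and 24 (0.0163%) were higher and 27 lower. All 7 were listed at 0 in the 3 libraries at 60 mg/L, and 0 of them had passed the test of 90 mg/L against control. Their FPKM at 90 mg/L ran from 9.54 to 48.82 and in controls from 3.18 to 33.78. Detected unigenes are above 0 at 90 mg/L by the rule, which asks nothing of the 60 mg/L libraries, so zeros could stand only on the 60 mg/L side and the direction of these calls says nothing about dose.

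The identifiers of the more abundant detected unigenes were concentrated, a feature the rule did not use. The first number of the identifier was 47276 in 99.3% of detected unigenes, 94.1% of all tested unigenes and 78.7% of the whole table. The second number lay between 160000 and 180000, bounds chosen after the values were seen, in 93.4% of the top level and 61.2% at 100 to 1000 FPKM. It did so in 37.9% at 30 to 100 FPKM, 19.6% at 10 to 30 FPKM and 9.84% at 5 to 10 FPKM. The last is near the 9.32% of all tested unigenes, and in the whole table it was 4.69%. Of the 98 that fell, 67 (68.4%) lay in that range, as did 2 of the 10 that rose (20%). The share over all detected unigenes was 21.4%, so the count of rises is no result about them. The share in that range increased with level, and at 100 to 1000 FPKM 32 of the 37 that fell lay in it, beside 61.2% of that level. Whether falls lay there more often than their levels give was not tested. What the numbering stands for is not given in the sources used here, and with no sequence at hand, whether neighbouring identifiers share reads was not tested.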

How the data were processed

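Whole-tissue tadpole RNA was sequenced as paired ends on a HiSeq instrument after poly-A selection, per the labels' protocols. The authors deposited 1 table of FPKM with a column per library, per the labels. The names and versions of the assembler, aligner and counter, and any filter, were not given in the sources used here. FPKM hold no counts, so depth is known only in relative terms and no counting interval can be given.

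Values were divided by median-ratio factors from the 89518 unigenes above 0 in all 9 libraries. Limma 3.58.1 (R 4.3.3) was run on log2(scaled FPKM + 1) with 1 mean per dose, a trend on expression and 6 residual degrees of freedom, for the 147577 unigenes that averaged 1 FPKM or more over the 9 libraries, and p-values were adjusted over all of them. Shares were compared by two-sided exact permutation tests, adjusted over 14. Unigenes are named for the 2 largest gains and 2 largest losses in mean scaled FPKM among called detected unigenes without overlap, plus the highest of each level. Cluster-47276.167320, Cluster-47276.166610 and Cluster-47276.189224, none of them called, are named as well for their shifts of share. They were chosen after the values were seen. The members, levels and tests were chosen with earlier results of these data known. The alternatives are in the closing section. Software was data.table (version 1.17.8), pandas 2.3.3, NumPy 2.4.6 and matplotlib 3.10.9.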

Additional observations from a re-analysis of the deposited data

How the results depend on the processing

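Counts of falls and rises among detected unigenes, 98 and 10, became 59 and 21 without scaling, 56 and 5 without a trend, 5 and 0 with the 6 libraries alone, and 272 and 49 with a term for the 3 libraries that lie apart (GBH 90 mg/L replicate 3, GBH 60 mg/L replicate 2 and control replicate 2). Without those 3 they were 182 and 34, and the range over single libraries left out was 34 to 154 and 2 to 18. Quantile normalization, factors from unigenes of at least 5 FPKM, a pseudocount of 0.1, no filter and a mean of at least 5 FPKM each left both counts within 1.5 times. With the replicate number as a block, 26 fell and 1 rose. Same-numbered libraries deviated from their group means with correlations of 0.107, -0.061 and -0.174. GBH 90 mg/L replicate 1 correlated better with control replicate 3 (0.128) than with control replicate 1. Deviations from a mean of 3 libraries are not free of each other, so these values cannot decide whether the numbers pair the libraries. Of the unigenes listed at 0, 6662 at 90 mg/L and 7852 in controls were found at a mean of at least 1 FPKM in place of 5, and the 61 falls and 47 rises became 11 and 8 with the 6 libraries alone and ranged over 37 to 124 and 28 to 88 with single libraries left out. The median log2 difference over detected unigenes, -0.10, became 0.22 without scaling, 0.037 by quantile normalization and -0.0099 with factors from unigenes of at least 5 FPKM. It was -0.07 without GBH 90 mg/L replicate 3 and control replicate 2, and -0.13 to -0.065 over single libraries left out. In the top level, -0.49 became -0.14 without scaling and 0.13 by quantile normalization, with -0.64 to -0.25 over single libraries left out. At 5 to 10, 10 to 30, 30 to 100 and 100 to 1000 FPKM the medians turned to 0.24, 0.22, 0.24 and 0.14 without scaling and to 0.032, 0.019, 0.063 and 0.087 by quantile normalization, and at 5 to 10 FPKM to 0.018 with factors from unigenes of at least 5 FPKM. The gap between the top level and 5 to 10 FPKM, a measure added after the data were seen, turned to 0.094 by quantile normalization. The share at 100 to 1000 FPKM, 0.343 points higher at 90 mg/L, became -0.105 with levels cut on all 9 libraries and -0.272 to 0.899 over single libraries left out. The differences in share of the other 4 levels and of all detected unigenes kept their sign in every alternative run, and for the remaining shares no alternative was run. Scaling acts on all unigenes at once; the cause of the other shifts was not tested.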
